A study of Mus musculus with 4 samples.

Results

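The 10 genes described here encode the 5 subunits of the transcription factor NF-kB (Nfkb1, Nfkb2, Rel, Rela and Relb), 4 proteins of the IkB family (Nfkbia, Nfkbie, Nfkbiz and Bcl3) and Tnip1, an adaptor that binds ubiquitin and restrains NF-kB signalling. They were chosen by name, with earlier results of these data known, and all 10 were found among the 23390 gene models of the count table. The study grew bone marrow cells of wild-type C57BL/6J mice into macrophages over 3 days with medium conditioned by L929 fibroblasts, which supplied M-CSF equal to 20 ng/ml of the recombinant factor. The macrophages were then driven towards osteoclasts, the cells that resorb bone, with 40 ng/ml RANKL, in the solvent DMSO (2 libraries) or with 10 µM BMS-582949, an inhibitor of the kinase p38α (2 libraries). Both groups had the same genotype, RANKL and conditioned medium, and day 4 was the time of harvest. The growth and treatment text is the same for all 4 samples and names the compound for the DMSO samples too, so the groups rest on the treatment label alone. Exposure to the compound is given as 3 days in one source and as 4 days in another. Whether replicate libraries stem from different mice or dishes is not said, so the p-values reflect only variation between these libraries, and that variation may be technical.

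RANKL acts through its receptor RANK, which activates NF-kB by a pair of routes. In the canonical route the IKK complex marks IkB proteins such as IkBα for destruction, which frees dimers of RelA, c-Rel and p50. In the noncanonical route the kinase NIK drives the processing of p100 to p52, the partner of RelB. Nfkb1 encodes p105 and its product p50, and Nfkb2 encodes p100 and its product p52. Mice that lack both of these genes form no osteoclasts. Several NF-kB and IkB genes carry NF-kB sites themselves and so form feedback loops.

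RefSeq promoter windows, which run from 250 bases before to 50 bases after an annotated start, were available here for 7 of the 10 genes (build GRCm38.p6). They are shown because NF-kB is known to bind sites of this kind in genes that feed back on it. Capitals mark bases that match the kB consensus, a motif of 10 bases, on either strand, and overlapping matches were merged. Each line gives 120 bases, 5′ to 3′ on the strand of the gene, ending at the base before the start, except for Bcl3, where the line ends 12 bases past the start.
Nfkb2: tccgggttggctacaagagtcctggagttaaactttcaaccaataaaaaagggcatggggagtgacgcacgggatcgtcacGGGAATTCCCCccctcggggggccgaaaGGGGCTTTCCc
Rel: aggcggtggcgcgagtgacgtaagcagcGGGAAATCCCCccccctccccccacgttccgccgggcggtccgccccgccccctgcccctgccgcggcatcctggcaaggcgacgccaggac
Rela: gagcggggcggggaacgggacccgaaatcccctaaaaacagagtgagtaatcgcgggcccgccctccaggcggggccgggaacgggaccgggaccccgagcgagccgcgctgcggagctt
Nfkbia: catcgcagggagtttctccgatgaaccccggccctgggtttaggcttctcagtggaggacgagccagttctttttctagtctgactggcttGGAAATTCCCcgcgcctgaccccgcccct
Nfkbie: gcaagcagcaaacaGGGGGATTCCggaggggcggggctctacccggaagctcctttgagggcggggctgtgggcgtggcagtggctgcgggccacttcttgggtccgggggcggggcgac
Bcl3: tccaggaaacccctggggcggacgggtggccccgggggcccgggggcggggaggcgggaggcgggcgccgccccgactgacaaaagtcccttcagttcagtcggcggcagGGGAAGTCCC
Tnip1: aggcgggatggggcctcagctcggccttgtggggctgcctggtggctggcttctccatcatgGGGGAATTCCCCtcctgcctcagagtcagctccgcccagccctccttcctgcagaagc

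The stretches lie at chr19:46304617-46304736 (Nfkb2, plus strand), chr11:23770970-23771089 (Rel, minus), chr19:5637421-5637540 (Rela, plus), chr12:55492648-55492767 (Nfkbia, minus), chr17:45555580-45555699 (Nfkbie, plus), chr7:19822744-19822863 (Bcl3, minus) and chr11:54962941-54963060 (Tnip1, minus). A match to the consensus stood in the window of 6 of the 7 genes, all but Rela, while 9.55% of the 27025 genes with a window had one (8.46% of all windows). The match began 29 bases before the start in Nfkbia, which encodes IkBα, 58 before it in Tnip1, 92 in Rel and 106 in Nfkbie. Nfkb2 had 2 separate matches, 39 and 11 bases before the first of its 3 annotated starts, and further ones near the other starts. Genes with a match were among those higher with the inhibitor, those lower and those not called. Over all tested genes with a window, 32.5% of the 1237 with a match were called higher and 29.5% lower, against 31.3% and 30.0% of the 8663 without one, and the median log2 fold change was 0.04 in both sets. A match is a run of letters, and binding was not measured.

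Depth ran from 35331889 to 36178333 counts in DMSO and from 37455168 to 39255925 with BMS-582949. Among the 13214 genes with enough counts, 60.2% were called, 4035 higher and 3919 lower (edgeR, adjusted p under 0.05 by Benjamini-Hochberg), so a call is common in this comparison. Scaling by library size alone in place of TMM gave 6738 higher and 2240 lower, a split of 75.1% to 24.9% where TMM gave 50.7% to 49.3%, and shifted the median over all genes from 0.03 to 0.41 on the log2 scale. The labelled cell type was borne out in DMSO by the levels of Acp5, an osteoclast phosphatase (34254 and 35276 CPM, that is, TMM-scaled counts per 1000000), and Ctsk, the collagen-degrading protease (34709 and 34561 CPM). All 10 osteoclast markers were lower with the inhibitor, and their summed level ran from 111619 to 115993 CPM in DMSO and from 13312 to 13569 CPM with BMS-582949. Of 10 macrophage markers, 6 were higher and 2 lower (summed 10574 to 10793 CPM and 11143 to 11919 CPM), and Adgre1, which encodes the macrophage antigen F4/80, rose by 1.19 on the log2 scale, while the more abundant Csf1r, the gene of the M-CSF receptor, and Cd68 were the 2 that fell (-1.16 and -1.35). Of 9 tested stromal markers, 6 were lower and 1 higher (summed 854.3 to 932.4 CPM and 629 to 630 CPM). Markers of neutrophils, dendritic, B, T and NK, erythroid and mast cells summed to at most 33.9 CPM in any library and list, and Ly6g, Siglech, Cd3e, Cd8a, Ncr1 and Mcpt4 had no count in any library. Osteoclast and macrophage markers thus moved with the groups compared in every result below, and their part in those results was not tested. In RNA from whole cultures, fewer cells of a type and less RNA per cell cannot be told apart.

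Of the 10 genes, 6 were called higher with BMS-582949 (Nfkb1, Nfkb2, Relb, Nfkbie, Nfkbiz and Bcl3), 2 lower (Nfkbia and Tnip1), and 2 were not called (Rel and Rela). For comparison, the background was 30.5% higher and 29.7% lower. The median log2 fold change of the 10 was 0.36, beside 0.03 for all genes. The 10 were chosen with earlier results of these data known, so neither contrast is an independent one. They leave out IkB genes such as Nfkbib (-0.33) and Nfkbid (0.04). The groups did not overlap for any of the 10, as was so for 80.2% of genes tested. Changes were small, and only Nfkbiz passed 2-fold. The 2 falls depend on scaling, since both genes had positive values with library size alone (Nfkbia 0.15, Tnip1 0.05), whereas the 6 rises held their sign and their call in all 16 alternative fits. With library size alone those 6 values ran from 0.71 (Relb) to 1.48 (Nfkbiz), beside a median of 0.41 over all genes.

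**Figure D1:**
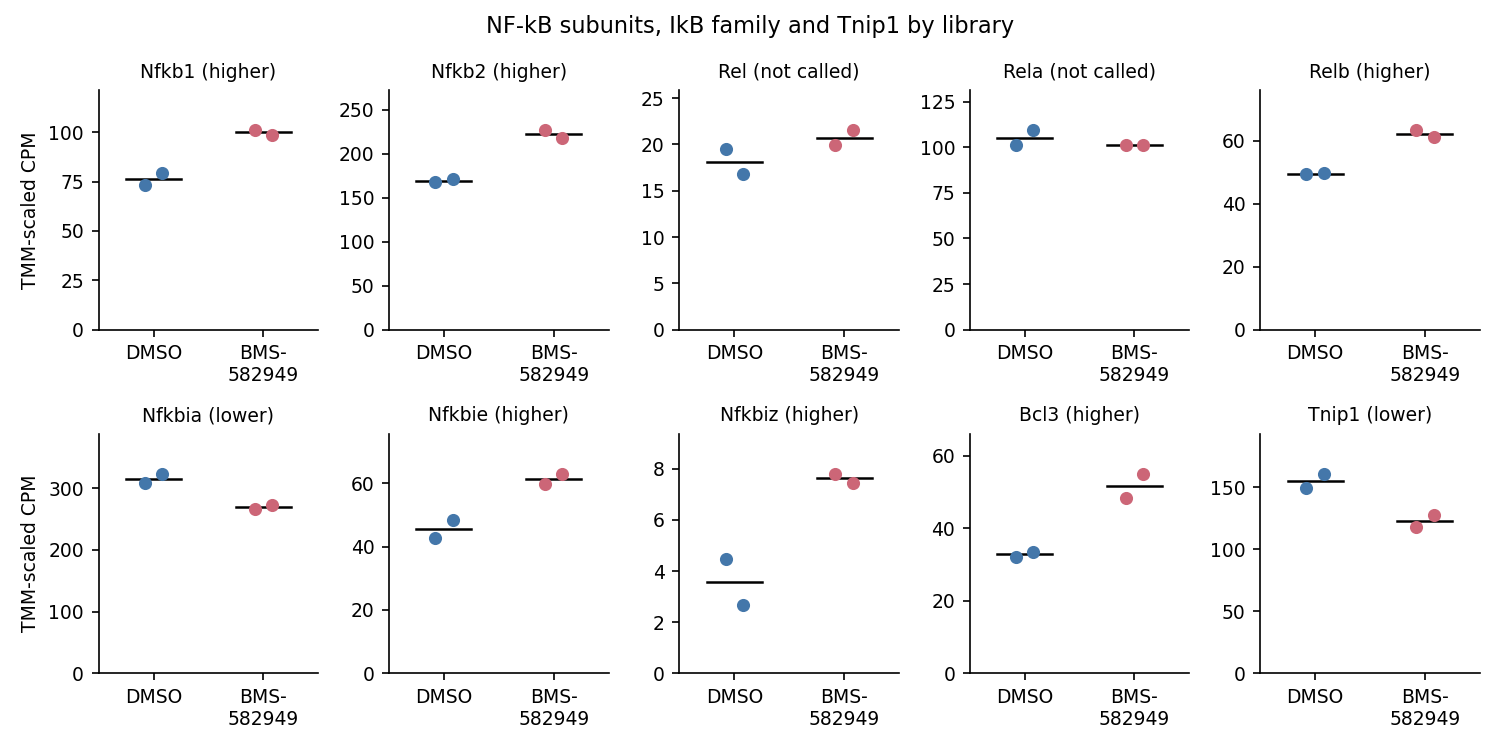
TMM-scaled CPM of each gene in the 2 DMSO libraries (blue) and the 2 BMS-582949 libraries (red), each on its own axis from 0; points are libraries and black lines group means, and the edgeR call stands beside the gene name. Both inhibitor points lie above both DMSO points for Nfkb1, Nfkb2, Relb, Nfkbie, Nfkbiz and Bcl3, and below them for Nfkbia and Tnip1.

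Nfkb1 (ENSMUSG00000028163, chromosome 3, 135584655 to 135691547, GRCm38, GENCODE M21), the gene of p105 and p50, stood at 73.1 and 79.4 CPM in the DMSO libraries and at 100.9 and 98.8 CPM with BMS-582949. Both inhibitor libraries were above both controls. The log2 fold change was 0.39 ± 0.07 (SE, n = 2 each, edgeR adjusted p = 3.0e-04), a 1.31-fold rise. Nfkb2 (ENSMUSG00000025225, chromosome 19, 46304320 to 46312385), the gene of p100 and p52, had 168.0 and 170.8 CPM in DMSO and 226.4 and 217.6 CPM with the inhibitor. Its log2 fold change was 0.39 ± 0.06 (edgeR adjusted p = 1.1e-04), so the genes of both precursors rose by a like amount at this scaling. Exons of Nfkb2 overlap other models over 18.1% of their length, among them Psd on the opposite strand, which was itself low (6.40 to 8.76 CPM) and not called with TMM, though it was called higher with library size alone (0.64) and after removal of the GC and length trend (0.60). The number of Nfkb2 counts per Nfkb1 count came to 2.30 and 2.15 in the controls against 2.25 and 2.20 under the inhibitor, and these ranges overlap. A trend of each library on GC content and exon length, once removed, parted them, with 0.26 for Nfkb1 and 0.61 for Nfkb2.

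Relb (ENSMUSG00000002983, chromosome 7, 19606217 to 19629438), whose product pairs with p52 in the noncanonical route, had 49.3 and 49.9 CPM in DMSO and 63.3 and 61.1 CPM with BMS-582949. The DMSO libraries were nearly equal and lay below both inhibitor libraries. The log2 fold change was 0.33 ± 0.07 (edgeR adjusted p = 1.7e-03), and 0.52 after removal of the GC and length trend. Map3k14, which encodes the kinase NIK of the same route, rose by 0.73 ± 0.14 from 13.8 and 17.8 CPM to 24.6 and 27.8 CPM.

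Rela (ENSMUSG00000024927, chromosome 19, 5637483 to 5648130), the gene of the canonical subunit p65, had 101.4 and 109.3 CPM in DMSO and 101.3 and 101.1 CPM with BMS-582949. The groups did not overlap but nearly met. The log2 fold change was -0.06, with a 95% interval from -0.20 to 0.08, and it was not called (edgeR adjusted p = 0.46). The upper bound of that interval lies below the estimates for Nfkb1 and Nfkb2 at this scaling. With library size alone the value for Rela was 0.32 and called, and those for Nfkb1 and Nfkb2 were then 0.77 each. After removal of the GC and length trend Rela had 0.16 and was called, beside 0.26 for Nfkb1 and 0.61 for Nfkb2. Rel (ENSMUSG00000020275, chromosome 11, 23736847 to 23770970), the gene of c-Rel, had 19.5 and 16.8 CPM in DMSO and 20.0 and 21.5 CPM with the inhibitor. Its change of 0.19 had an interval from -0.07 to 0.46 (edgeR adjusted p = 0.18), so neither no change nor a rise as large as that of Nfkb1 was outside it. With library size alone Rel was called, at 0.58.

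Levels were compared between genes after division by merged exon length (CPM per kilobase). In DMSO the order of the subunits was Nfkb2 at 36.9 ± 0.436 (SD, n = 2), Rela at 34.3 ± 1.83, Relb at 12.8 ± 0.109, Nfkb1 at 6.32 ± 0.367 and Rel at 2.43 ± 0.256 CPM per kilobase. With BMS-582949 it was Nfkb2 at 48.4 ± 1.37, Rela at 32.9 ± 0.0302, Relb at 16.0 ± 0.393, Nfkb1 at 8.28 ± 0.123 and Rel at 2.78 ± 0.146. The order was thus the same in both groups, with Nfkb2 and Rela close in DMSO (36.6 and 37.3 against 33.0 and 35.6) and further apart with the inhibitor. The place of Nfkb1 depends on the length used, because its merged exons span 12061 bases and its longest transcript 4149. With the longest transcript Nfkb1 stood above Relb in both groups (17.6 and 19.1 against 15.1 and 15.2 CPM per kilobase in DMSO).

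As a share of the summed per-kilobase level of the 5 subunits, which no scaling between libraries can change, Nfkb2 made up 40.3% and 39.4% in the controls, then 45.0% and 44.3% under BMS-582949. Rela made up 36.3% and 37.7%, then 30.0% and 30.7%. The share of Rela was thus lower, and that of Nfkb2 higher, in both inhibitor libraries than in either control. Relb went from 13.9% and 13.6% to 14.9% and 14.7%, Nfkb1 from 6.66% and 6.96% to 7.62% and 7.64%, and Rel (2.86% and 2.38%, then 2.44% and 2.69%) overlapped between groups. With 2 libraries against 2, an exact two-sided permutation test cannot go below 0.333, so these shares carry no test. The GC and length trend, which differs between genes, was not removed from them. After its removal the log2 fold change was 0.61 for Nfkb2, 0.52 for Relb, 0.26 for Nfkb1, 0.16 for Rela and 0.03 for Rel.

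**Figure D2:**
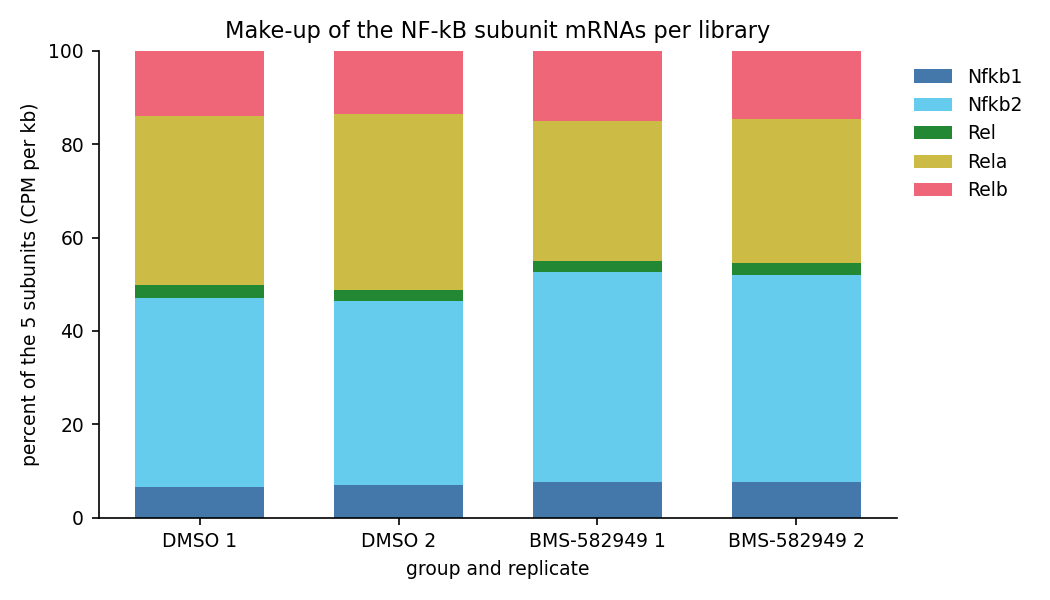
Stacked bars give, for each of the 4 libraries, the percent of the summed CPM per kilobase of the 5 subunit mRNAs that each one makes up. The Rela band narrows from 36.3% and 37.7% in DMSO to 30.0% and 30.7% with BMS-582949, and the Nfkb2 band widens from 40.3% and 39.4% to 45.0% and 44.3%.

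Among the IkB genes, Nfkbia (ENSMUSG00000021025, chromosome 12, 55489410 to 55492647) was by far the most abundant, at 196 ± 6.78 CPM per kilobase in DMSO and 167 ± 2.96 with the inhibitor. It encodes IkBα, which holds NF-kB dimers in the cytoplasm and is remade as an early NF-kB target. It had 308.1 and 323.6 CPM in DMSO and 265.8 and 272.6 CPM with BMS-582949, and the groups did not overlap. The log2 fold change was -0.23 ± 0.06 (edgeR adjusted p = 5.6e-03) with TMM, turned to 0.15 with library size alone (adjusted p = 0.034), and was -0.06 and not called after removal of the GC and length trend (adjusted p = 0.36). Measured within a library, Nfkbia gave 3.04 and 2.96 counts per Rela count in DMSO and 2.63 and 2.70 with the inhibitor.

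Nfkbie (ENSMUSG00000023947, chromosome 17, 45555703 to 45563169) encodes IkBε, another cytoplasmic inhibitor. It had 42.7 and 48.5 CPM in DMSO and 59.7 and 63.0 CPM with BMS-582949, above both controls, a log2 fold change of 0.43 ± 0.08 (edgeR adjusted p = 7.2e-04). So the genes of these cytoplasmic inhibitors had opposite signs with TMM, and both were positive with library size alone. Nfkbib, the gene of IkBβ and not one of the 10, went from 50.3 and 50.8 CPM to 37.8 and 42.6 CPM (-0.33, edgeR adjusted p = 4.7e-03), with 16.4% of its exons overlapping other models. Its value was 0.05 with library size alone, and -0.15 and not called after removal of the GC and length trend (adjusted p = 0.12).

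Bcl3 and Nfkbiz encode nuclear members of the family, which bind p50 or p52 at DNA and alter transcription rather than holding NF-kB in the cytoplasm. Bcl3 (ENSMUSG00000053175, chromosome 7, 19808462 to 19822770) had 32.1 and 33.5 CPM in DMSO and 48.4 and 55.0 CPM with BMS-582949. Its log2 fold change was 0.66 ± 0.09 (edgeR adjusted p = 4.9e-05), the smallest adjusted p of the 10, and 80.7% of tested genes had the same or a lower log2 fold change. Exons of Bcl3 overlap an antisense model, absent from the count table, over 6.51% of their length. Nfkbiz (ENSMUSG00000035356, chromosome 16, 55811375 to 55838899), the gene of IkBζ, was the least abundant, with 139 and 84 counts (4.47 and 2.66 CPM) in DMSO and 353 and 315 counts (7.80 and 7.44 CPM) with the inhibitor. The controls differed from each other more than the inhibitor libraries did, yet both lay below them. Its log2 fold change of 1.10 ± 0.23 (95% interval 0.59 to 1.60, edgeR adjusted p = 1.3e-03) was the largest and least precise of the 10. Nfkbid, another nuclear IkB gene but outside the 10, lay between 19.84 and 20.99 CPM in all 4 libraries and was not called with TMM (0.04, edgeR adjusted p = 0.77), though it was with library size alone (0.42).

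Tnip1 (ENSMUSG00000020400, chromosome 11, 54910785 to 54962917) encodes ABIN-1, which works with the ubiquitin-editing enzyme A20. It had 148.9 and 160.7 CPM in DMSO and 117.8 and 127.6 CPM with BMS-582949. The groups were apart, and the log2 fold change was -0.34 ± 0.07 (edgeR adjusted p = 9.4e-04) with TMM, 0.05 with library size alone (adjusted p = 0.54) and -0.12 after removal of the GC and length trend (adjusted p = 0.11). Its partner Tnfaip3, the gene of A20, fell by 1.17 from 51.9 and 61.4 CPM to 25.3 and 25.1 CPM. Its relative Tnip3 rose by 1.73 ± 0.10, from 16.0 and 15.9 CPM to 51.3 and 54.5 CPM, while Tnip2 (-0.23, and 0.15 with library size alone) was not called. Of the 3 Tnip genes, 1 was thus called lower, 1 higher and 1 not at all with TMM.

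**Figure D3:**
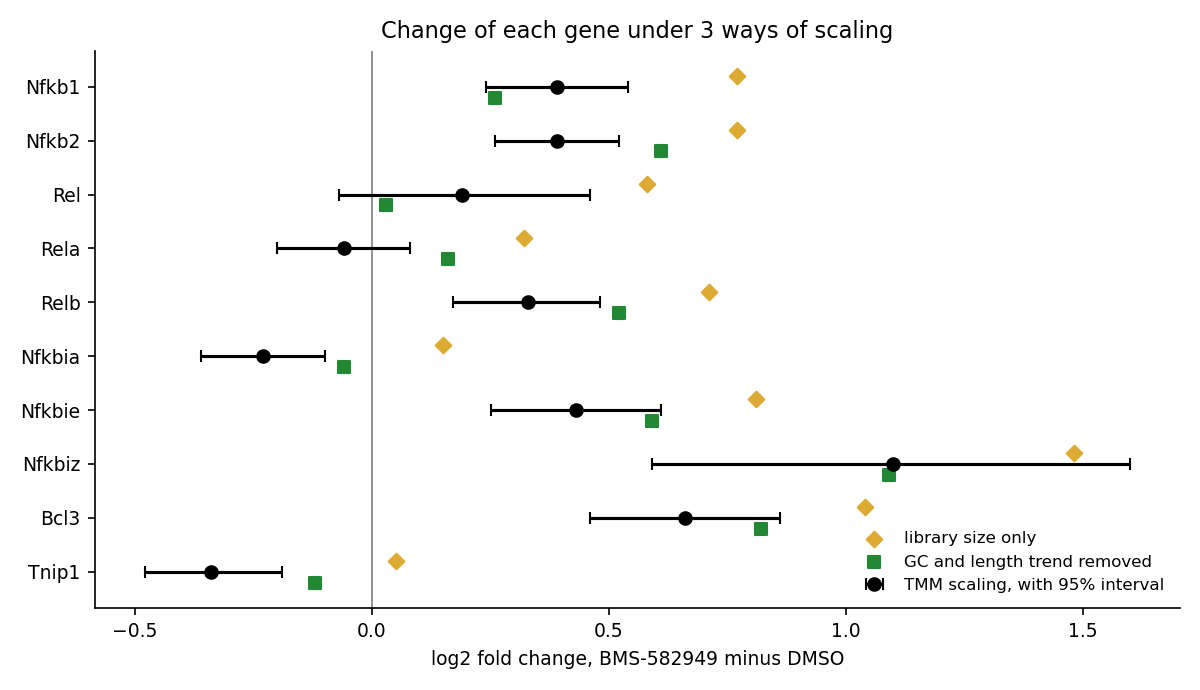
Log2 fold change of each gene, BMS-582949 minus DMSO: black points with 95% intervals are from edgeR with TMM scaling, diamonds from library size alone and squares from the fit after removal of the GC and length trend. Library size alone puts every point to the right of its TMM value, and Nfkbia (-0.23 to 0.15), Tnip1 (-0.34 to 0.05) and Rela (-0.06 to 0.32) cross 0.

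The 10 genes were also set against each other within each library, as percent of their summed counts, which does not depend on scaling. Nfkbia took 32.5% in each DMSO library and 26.3% and 26.6% with the inhibitor. Tnip1 went from 15.7% and 16.1% to 11.7% and 12.4%, and Rela from 10.7% and 11.0% to 10.0% and 9.86%. These 3 shares were lower in both inhibitor libraries. Nfkb2 went from 17.7% and 17.2% to 22.4% and 21.2%, Nfkb1 from 7.71% and 7.98% to 9.97% and 9.63%, and Bcl3 from 3.39% and 3.36% to 4.79% and 5.37%. Shares of Relb, Nfkbie and Nfkbiz were also higher in both inhibitor libraries, and that of Rel overlapped between groups. A share can only rise where another falls, so this shows unequal change and not which gene changed. These shares, too, were taken without removal of the GC and length trend.

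Removing the GC and length trend moved the values of these genes in different directions. It lowered the value of Nfkb1 (from 0.39 to 0.26) and Rel (from 0.19 to 0.03), whose longest transcripts hold 44.9% and 42.5% G and C, the lowest of the 10, and whose merged exons are the longest (12061 and 7466 bases), so GC content and length are not separated here. It raised that of Nfkb2 (to 0.61), Relb (to 0.52), Rela (to 0.16), Nfkbie (to 0.59), Bcl3 (to 0.82) and Tnip1 (to -0.12), with 55.4% to 62.6%, and that of Nfkbia (to -0.06), with 52.9%. Nfkbiz, at 50.1%, stayed nearly in place (1.09).

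Other genes of the pathway moved in both directions. For comparison with all the lists below, 30.5% of all tested genes were called higher and 29.7% lower with TMM. With library size alone these shares were 51% and 17%. Of 9 tested genes of the remaining IkB proteins and nuclear regulators, 4 were called higher and 1 lower (median 0.13), and with library size alone 7 and 0. With DESeq2, limma-voom and the GC and length trend removed, 3, 3 and 2 were higher. Among the 4, Nkap (0.28, edgeR adjusted p = 0.049) was called in none of these 3 fits, and had 0.13 in the last. Pdlim2, which encodes a ligase for nuclear RelA, rose by 1.02 from 11.0 and 10.7 CPM to 22.8 and 21.3 CPM, and Nkrf, a repressor gene, rose by 0.76. Of 15 genes of the IKK complex, related and upstream kinases and their partner proteins, 3 were higher and 2 lower (median 0.14). With library size alone 11 were higher and 1 lower. Ikbke, the gene of an IKK-related kinase, rose by 2.05 ± 0.12, from 8.91 and 8.49 CPM to 36.7 and 35.3 CPM. Tank, the gene of an adaptor for that kinase, fell by 1.47, from 197.0 and 192.3 CPM to 70.1 and 70.5 CPM. The core kinase genes Chuk (-0.06) and Ikbkb (0.14) were not called with TMM and were called higher with library size alone (0.32 and 0.53). Ikbkb was called in 4 of the 16 alternative fits in all, among them the one without DMSO replicate 2 (0.26). Ikbkg, the gene of NEMO, had 0.22 (edgeR adjusted p = 0.012, 0.091 without BMS-582949 replicate 1, and 0.30 after removal of the GC and length trend, where its value was 0.07). The other lower gene, Tab1 (-0.33), lost its call without DMSO replicate 1 (adjusted p = 0.062), DMSO replicate 2 (0.064) or BMS-582949 replicate 2 (0.056), and after removal of that trend, where its value was -0.12 (0.33).

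Of 16 adaptor and ubiquitin ligase genes, 7 were higher and 4 lower (median 0.01), and with library size alone 12 and 2. Traf6, the gene of the adaptor through which RANK signals, went from 65.2 and 69.3 CPM to 39.9 and 31.4 CPM (-0.91), while Birc3, itself an NF-kB target, rose by 0.62, as did Rbck1 (0.62), of the linear ubiquitin ligase. Of 14 ubiquitin editors and other brakes, 5 were higher and 4 lower (median 0.10), and with library size alone 9 and 2. Besides Tnfaip3, Otud7b (-1.02) and Cyld (-0.42), genes of deubiquitinases, were lower. Besides Tnip3, Nlrc3, a brake on innate signalling, was higher (1.68, from 4.21 and 4.06 CPM to 13.2 and 13.3 CPM). Usp18 was also higher (from 1.42 and 1.27 CPM to 2.41 and 3.76 CPM), but its call ended without BMS-582949 replicate 2 (0.82). The value for Cyld was -0.04 and not called with library size alone. None of the 9 genes of IkB and precursor degradation was called higher and 6 were lower (median -0.20), whereas with library size alone 5 were higher and 1 lower (median 0.18). Btrc, an F-box gene whose product recognises phosphorylated IkBα, fell by 0.84 from 21.1 and 20.7 CPM to 12.3 and 11.0 CPM. Fbxw11, more abundant and in the same list, went from 82.0 and 85.5 CPM to 74.5 and 71.6 CPM (-0.20).

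Of 17 tested genes of receptors and their adaptors, 9 were higher and 4 lower (median 0.20), and with library size alone 13 and 3 (median 0.58). Tnfrsf11a, the gene of RANK, went from 162.5 and 163.7 CPM to 112.2 and 110.9 CPM (-0.55), and Irak2, which acts downstream of Toll-like and IL-1 receptors, fell by 1.32. Il1rap, the gene of the IL-1 receptor accessory protein, rose by 1.81 from 2.99 and 3.36 CPM to 10.2 and 12.1 CPM. Of 36 tested genes known as NF-kB targets, 13 were higher and 10 lower (median 0.15), and with library size alone 19 and 7 (median 0.53). Tlr2 rose by 1.62 and the chemokine gene Ccl2 by 2.38, while Nfatc1 (-1.48) and Mmp9 (-3.09), which also belong to the osteoclast programme, fell. The targets thus did not move one way, and Mmp9 is also one of the osteoclast markers counted above. The targets Traf1, Birc3, Tnfaip3, Zc3h12a, Cd40 and Tlr2 also stand in another list above and are counted in both. Cflar, an anti-apoptotic target gene that is named because its libraries differ, had 49.9 CPM in one BMS-582949 library and 10.7 CPM in the other and was not called. With the first of these left out its value was -1.96 and with the second left out 0.25, and it was called in each fit.

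**Figure D4:**
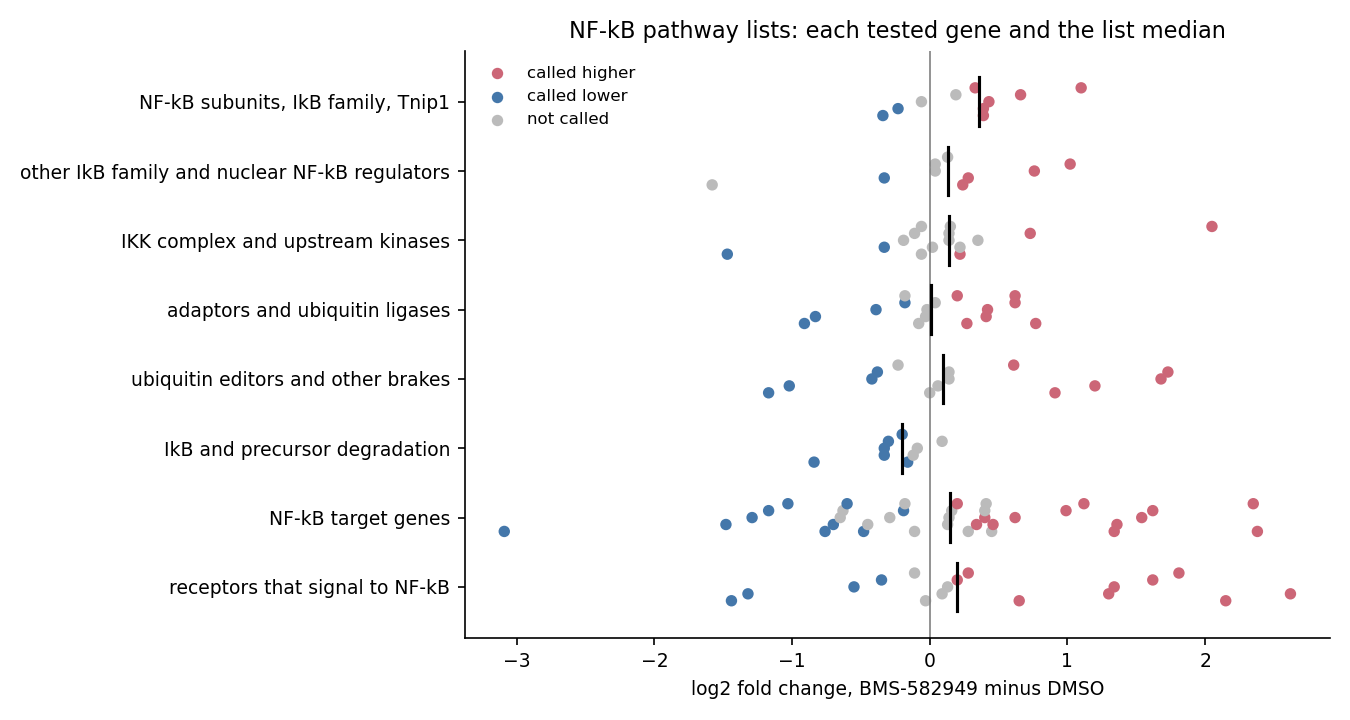
Log2 fold change (TMM, BMS-582949 minus DMSO) of every tested gene of 8 pathway lists, coloured by edgeR call, with the list median as a black bar. The median of the 10 genes is 0.36, that of the degradation list is -0.20, and the target list spreads from -3.09 (Mmp9) to 2.38 (Ccl2).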

How the data were processed

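Reads were processed by the authors with a set of tools that included HISAT2 2.0.4, Trimmomatic 0.36 and DESeq2 1.30.1 (build GRCm38), per the submitters' processing notes. Not given in the sources used here were the counter, its annotation and its strand setting. The deposited values are raw counts per gene model, which sum to 35331889 to 39255925 per library. Columns were matched to samples by name; the titles of the treated samples transpose digits of the compound's name. Symbols, coordinates and exon lengths came from GENCODE M21 (GRCm38), which named 22022 of 22036 Ensembl identifiers. The test was edgeR 4.0.16 under R 4.3.3 (filterByExpr with a minimum count of 10, TMM, glmQLFit and glmQLFTest without covariates, 2 residual degrees of freedom), with Benjamini-Hochberg adjustment over 13214 genes and a call at 0.05. It was also run on simulated counts in which far fewer genes changed than were called here. That run therefore says little about scaling or false calls in this comparison. Replicate libraries differed by more than counting noise, with a chi-square of 10.0 (DMSO) and 14.3 (BMS-582949) for each degree of freedom. Alternatives used DESeq2 1.42.0, limma 3.58.1, other scalings and filters, and a loess trend on GC content and exon length (span 0.3). The genes and lists were chosen with earlier results of these data known. Named genes are the 10, up to 3 called genes per direction of each other list with a mean of at least 1 CPM, and Acp5, Ctsk and Adgre1. Tnip2, Nfkbid, Chuk, Ikbkb, Cflar, Csf1r, Cd68, Psd and Fbxw11 were named after their values were seen, as were genes named for having no count.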

Additional observations from a re-analysis of the deposited data

How the results depend on the processing

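The counts of 6 higher and 2 lower among the 10 genes were the same with DESeq2 size factors, DESeq2 itself, limma-voom, other filters and upper-quartile scaling, and when any 1 library was left out (the lone library of its group is then assumed to vary like the other group). None of the 10 was called lower (0) with library size alone, with the GC and length trend removed, or with that trend removed and a replicate block, where 9, 7 and 7 were called higher. Over all tested genes 51% were called higher and 17% lower with library size alone (6738 and 2240). With the trend removed 32.2% were called higher and 29.1% lower, and with the block added 31.4% and 28.3%. Requiring an absolute log2 fold change of at least 1 left 1314 genes higher and 1499 lower, and 1 and 0 of the 10. Among the genes named by rule or afterwards, values that changed sign with library size alone were Rela (0.32), Nfkbia (0.15), Tnip1 (0.05), Nfkbib (0.05), Tab1 (0.05), Ube2m (0.05), Nedd8 (0.06), Chuk (0.32) and Tnip2 (0.15). Fbxw11 is not covered, since no alternative value was recorded for it. Rela, which was not called, also had 0.16 with the GC and length trend removed, with or without the replicate block, and 0.00 with upper-quartile scaling. Chuk had 0.00 with that scaling and ranged from -0.12 to 0.01 with 1 library left out. Cflar ranged from -1.96 to 0.25 likewise, and Nfkbid was at -0.01 without BMS-582949 replicate 2. Cflar was called with the replicate block (-0.81). The shift of all genes by scaling was shown directly by the median, 0.03 with TMM and 0.41 with library size alone; the cause of the other changes was not tested. Deviations of same-numbered libraries from their group means had r = -0.08 over genes, and crossed numbers had 0.08. With 2 libraries per group these values mirror each other, so they cannot tell whether the numbers pair the samples. The replicate block gave 3923 genes higher and 3830 lower, with 6 and 2 of the 10. Depth limits Nfkbiz most, with 84 counts in its lowest library; its value ran from 0.77 without DMSO replicate 2 to 1.52 without DMSO replicate 1.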
